A study of Mus musculus with 6 samples.

Results

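This account concerns regions of open chromatin that were called in all 3 day 1 libraries and in only 1 or 2 of the 3 day 0 libraries of mouse brown pre-adipocytes. Of 68913 regions obtained by merging the overlapping peaks of 6 peak lists, 543 (0.788%) met this rule. Of these, 221 had a peak in 1 day 0 list and 322 in 2 day 0 lists. Nearby on the same scale of calls were 418 regions with a peak in all 3 day 1 lists and no day 0 list, and 9136 regions with a peak in all 6 lists. The members were chosen by the peak calls of every library, so their values by library are given as a description and no test was made between the days.

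Accessibility was assayed by ATAC-seq, which uses a transposase to tag DNA that nucleosomes leave free. The 3 day 1 libraries came from cells under brown adipocyte differentiation, and the 3 day 0 libraries from cells labelled WT. All were brown pre-adipocytes of a line labelled BAT, and neither the agents that start differentiation nor the number of clones behind the line is given in the labels. The series title names RUNX1 and RUNX2 deletion, and no deleted sample was analysed here. Nothing in the labels says whether replicates came from separate cultures, so the spread between them may be technical.

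Depth favoured day 0. The day 1 libraries held 4919755, 5603667 and 7302457 fragments and 20069, 23274 and 12556 peaks, and the day 0 libraries held 11011889, 8127635 and 9160156 fragments and 55511, 41993 and 39211 peaks. Day 1 replicate 3 stood apart, with the most fragments of its day and the fewest peaks. Pileup, the number of fragments over the summit of a peak, is given per 1000000 fragments of the library (FPM). The lowest pileup with a call was 0.685 to 0.813 FPM at day 1 and 0.454 to 0.615 FPM at day 0. A day 0 library without a call has no value here, so every day 0 level is a level in the libraries that made the call. Of 10 genes that mark adipocyte precursors, 3, 4 and 3 had a peak within 1 kb of a gene end in the day 1 lists and 7, 5 and 5 in the day 0 lists, and Pdgfra, Dlk1 and Zfp423 had none in any list. Of 8 genes each, endothelial markers had 0 or 1 such peaks at day 1 and 1 at day 0, immune markers 0 or 1 at day 1 and 2 or 3 at day 0, and muscle markers 0 at day 1 and 0 to 2 at day 0.

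Brown fat cells store lipid in many small droplets and burn it for heat. Their precursors become adipocytes when hormonal signals, commonly a glucocorticoid, insulin and a rise in cAMP, switch on the factors C/EBPβ and C/EBPδ, which in turn lead to PPARγ, the nuclear receptor at the centre of fat cell formation. Regulatory DNA near the target genes opens during these steps, often before the genes reach their full expression.

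Most members lay away from gene starts, and for these no genome sequence was used here. RefSeq promoter windows of GRCm38.p6, the assembly that mm10 names, overlapped 69 of the 519 members on chromosomes with such windows. The table gave 83 windows of 300 bases, 250 before and 50 after an annotated start, and 60 coding genes among them. The sequences below are the 250 bases before the start of 5 coding genes. Hal and Lipe hold the highest members with a promoter window, and Aqp7 is a lipid gene with a member over its start. Tmem268 is the next highest coding gene whose member had every day 1 value above the called day 0 values. The higher members at Prickle1 and Gtf2i did not. C3 was chosen after its values were seen, and a C/EBP match lies in it. Nr1h3, taken with C3, held no match to the motifs below and is not printed. Capitals mark matches to the motifs C/EBP (TTGCNNAA), AP-1 (TGANTCA) and RUNX (TGTGGTT), searched on both strands.
Hal, chr10:93488518-93488767, plus strand: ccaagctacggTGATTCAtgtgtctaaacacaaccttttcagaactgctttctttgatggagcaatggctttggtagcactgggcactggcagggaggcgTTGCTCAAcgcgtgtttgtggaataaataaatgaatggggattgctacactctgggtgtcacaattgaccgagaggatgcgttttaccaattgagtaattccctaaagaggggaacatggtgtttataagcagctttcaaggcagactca
Lipe, chr7:25390113-25390362, minus strand: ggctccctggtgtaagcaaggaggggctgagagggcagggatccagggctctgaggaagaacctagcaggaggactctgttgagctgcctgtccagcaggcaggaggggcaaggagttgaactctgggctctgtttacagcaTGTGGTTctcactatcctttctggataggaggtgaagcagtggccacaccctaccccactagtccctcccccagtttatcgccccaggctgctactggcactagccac
Tmem268, chr4:63559977-63560226, plus strand: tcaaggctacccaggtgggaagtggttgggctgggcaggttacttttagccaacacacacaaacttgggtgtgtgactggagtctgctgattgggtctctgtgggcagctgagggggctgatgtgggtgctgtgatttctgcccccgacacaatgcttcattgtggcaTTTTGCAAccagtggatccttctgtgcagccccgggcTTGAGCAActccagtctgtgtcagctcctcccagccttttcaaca
C3, chr17:57228137-57228386, minus strand: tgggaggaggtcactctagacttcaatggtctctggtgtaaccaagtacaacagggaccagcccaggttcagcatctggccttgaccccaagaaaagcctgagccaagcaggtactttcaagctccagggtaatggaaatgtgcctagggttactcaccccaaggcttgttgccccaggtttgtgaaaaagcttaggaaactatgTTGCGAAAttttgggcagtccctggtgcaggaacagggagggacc
Aqp7, chr4:41047963-41048212, minus strand: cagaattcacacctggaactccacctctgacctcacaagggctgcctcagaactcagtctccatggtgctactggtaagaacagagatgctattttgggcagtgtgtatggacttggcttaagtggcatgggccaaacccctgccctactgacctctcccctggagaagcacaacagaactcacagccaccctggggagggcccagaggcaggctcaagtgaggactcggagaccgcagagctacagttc
The Hal stretch holds an AP-1 match from position −239 and a C/EBP match from position −150, counted from the start of the gene. The Lipe stretch has a RUNX match from position −108, Tmem268 has C/EBP matches from positions −82 and −45, and C3 has one from position −45. Aqp7 has no match to these 3 motifs in this stretch, which says only that the letters are not in it.

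Hal encodes histidine ammonia-lyase, the enzyme of the first step of histidine breakdown. Its member, on chromosome 10 from 93488395 to 93488805, covers the annotated start. Pileup was 9.76, 6.60 and 3.83 FPM in the day 1 libraries, against 1.00 and 1.23 in day 0 replicates 1 and 2, with no call in day 0 replicate 3. The 3 day 1 values lay above both day 0 values, and the mean of the day 1 libraries, 6.73 ± 2.96 (SD, n = 3), was 6.04 times that of the called day 0 libraries.

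Lipe encodes hormone-sensitive lipase, which hydrolyses diacylglycerol in fat cells when cAMP rises. Its member, on chromosome 7 from 25390085 to 25390695, lies inside the gene 7.79 kb from the nearer gene end and covers the whole printed stretch before an internal start. Pileup was 7.93, 8.03 and 3.15 FPM at day 1, against 1.85 and 0.873 in day 0 replicates 2 and 3, with no call in day 0 replicate 1, the deepest library. All 3 day 1 values lay above both day 0 values. The outer ends of Lipe had no peak in any list.

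The other printed promoters were lower. At Tmem268 the member had 4.07, 3.75 and 1.64 FPM at day 1, against 1.48 in day 0 replicate 2 alone. At C3, which encodes the central complement protein, it had 2.24, 3.03 and 2.19 at day 1, against 0.999 in day 0 replicate 1 alone. At Aqp7, the glycerol channel of fat cells, it had 1.83, 1.96 and 1.64 at day 1, against 1.27 and 0.873 in day 0 replicates 1 and 3. In all 3 the days did not overlap among called libraries, which at Tmem268 was a condition of its choice. All day 1 values lay higher in 58.2% of all members and at 22 of the 83 member promoter windows. Tmem268 and C3 had 1 day 0 call each, and among all members with 1 day 0 call the share was 81.4%.

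Over the 83 member promoter windows, the C/EBP motif occurred in 10.8%, beside 7.39% of the 6930 windows of regions in all 6 lists and 10.8% of all 32851 windows. AP-1 occurred in 4.82%, beside 3.98% and 7.81%, and RUNX in 1.20%, beside 3.30% and 5.27%. The ETS motif (CCGGAAG) was in 8.43% of member windows, against 22.8% of windows in all 6 lists and 8.86% of all. Letters of the C/EBP, AP-1 and RUNX motifs were thus no more frequent in member promoters than in all promoters. Median GC content was 65.0% in member windows, against 62.3% in windows of regions in all 6 lists and 52.7% in all windows. The 22 windows whose members had every day 1 value above every called day 0 value had a median GC content of 55.3%, and the other 61 had 67.3%.

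The median pileup of the 543 members was 2.44, 2.50 and 1.37 FPM in day 1 replicates 1, 2 and 3, against 1.09, 1.23 and 0.983 FPM in those day 0 replicates where they were called. Unscaled, the median summit held 12, 14 and 10 fragments in the day 1 libraries, against 12, 10 and 9 in the day 0 libraries. The fragment counts of the days were close, and the day 1 libraries were the shallower ones. Day 1 replicate 3 was the lowest day 1 library in 501 members (92.3%). Members with 1 day 0 call had lower day 0 medians, 0.908, 0.984 and 0.819, than those with 2 day 0 calls, 1.27, 1.35 and 0.983. Regions in all 6 lists were higher throughout, with 3.66, 3.93 and 1.78 at day 1 and 3.86, 3.94 and 2.62 at day 0. Regions in the day 1 lists only had the same day 1 medians as the members, 2.44, 2.50 and 1.37.

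**Figure D1:**
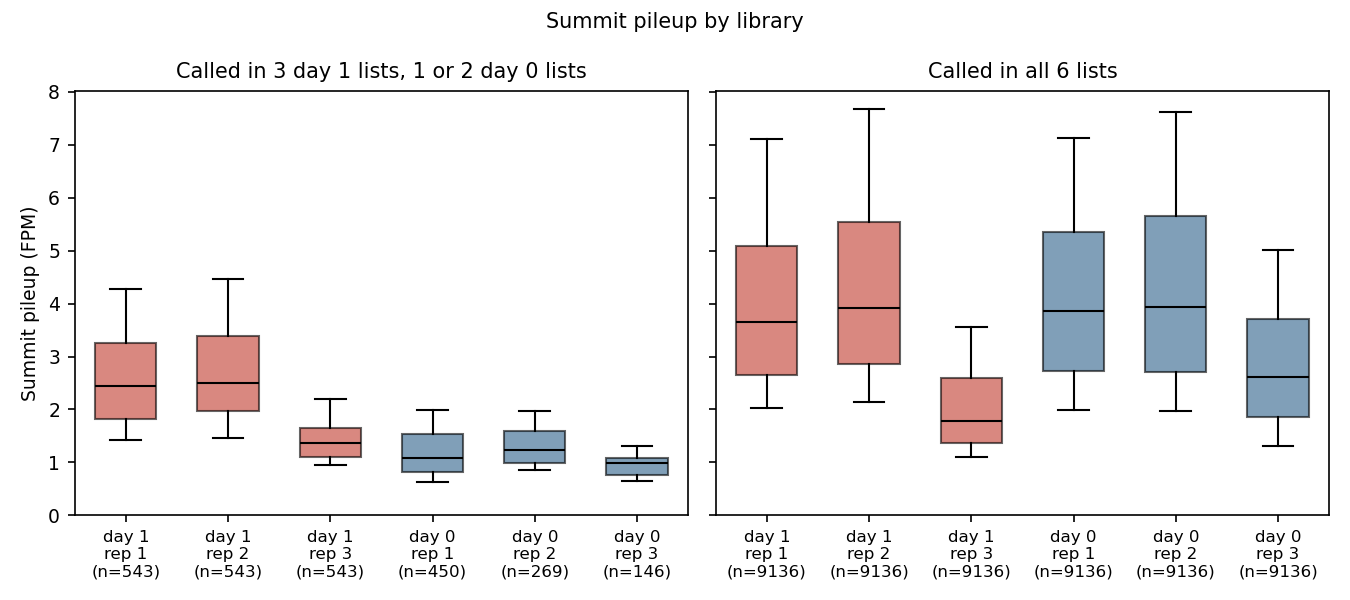
Summit pileup in FPM by library, for the members on the left and the regions in all 6 lists on the right, with day 1 left of day 0. Boxes run from the 25th to the 75th percentile with a line at the median, whiskers from the 10th to the 90th, and n counts the regions called in that library. The member medians sit at 2.44, 2.50 and 1.37 at day 1 and at 1.09, 1.23 and 0.983 at day 0.

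The day 0 calls were uneven across replicates. Day 0 replicate 1, the deepest, called 450 members (82.9%), replicate 2 called 269 (49.5%) and replicate 3 called 146 (26.9%). The most frequent pattern was replicates 1 and 2 without 3, with 204 members. Replicate 1 alone followed with 150 and replicates 1 and 3 with 96, while replicate 2 alone had 43, replicate 3 alone 28 and replicates 2 and 3 had 22. The order of the calls follows the order of peak number in the 3 day 0 lists. Leaving out day 1 replicate 3, the shortest list, the rule gave 1402 regions, and leaving out day 0 replicate 3 it gave 309.

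The log2 ratio of mean day 1 to mean called day 0 FPM had a median of 0.94 and ran from −0.59 to 3.09. It was 1.20 for members with 1 day 0 call and 0.75 for members with 2. Taken singly, day 1 replicates 1, 2 and 3 gave medians of 1.10, 1.18 and 0.27, so the size of the ratio depended on which day 1 library was read. The authors' fold enrichment in place of FPM gave a median of 0.30. The same rule on lists cut to 12556 peaks kept other regions, whose median was −0.14. In 316 members (58.2%) all 3 day 1 values lay above every called day 0 value, beside 5.69% of the 9679 regions with 3 day 1 calls and at least 1 day 0 call. A ratio of 2 or more was reached by 253 members (46.6%), beside 4.32% of the same regions. Since a missing or low day 0 call chose the members, these shares describe the choice and nothing is read from the contrast. The highest library was day 1 replicate 1 in 246 members, day 1 replicate 2 in 272 and day 1 replicate 3 in 3, and day 0 replicate 1 in 13 and day 0 replicate 2 in 9.

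**Figure D2:**
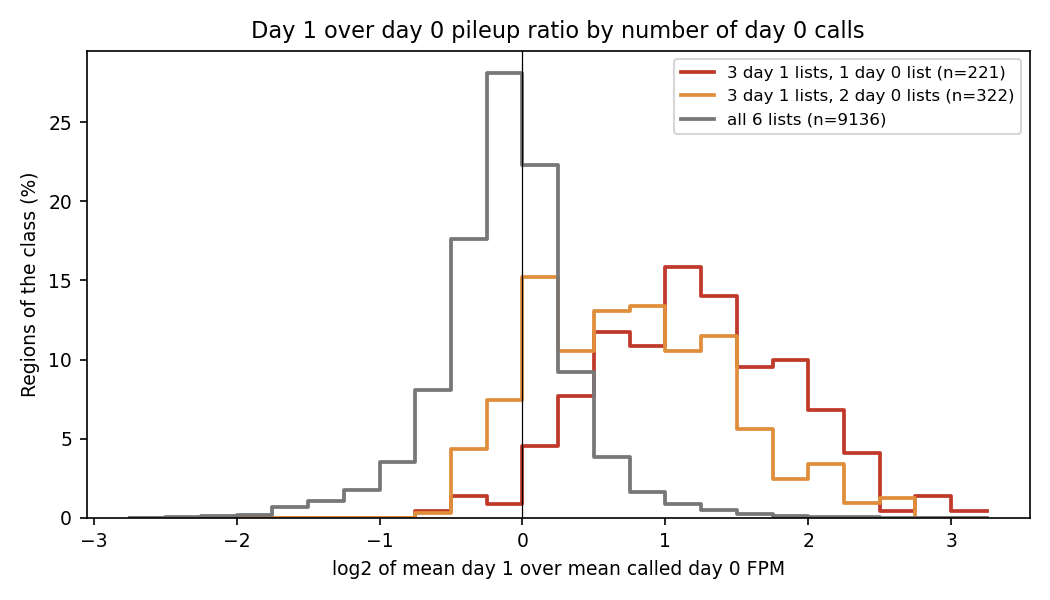
Distribution of the log2 ratio of mean day 1 to mean called day 0 FPM in members with 1 day 0 call, members with 2 day 0 calls and regions in all 6 lists, as percent of each class. The medians are 1.20, 0.75 and −0.09.

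A smaller set went the other way. The mean was lower at day 1 in 45 members, and in 6 every day 1 value lay below every called day 0 value, beside 7.57% of the 9679 regions. These 6 were nearest to AI597479, Gtdc1, Mtor, Arhgef25, Dll1 and Btbd9, named after their values were seen. Mtor encodes the kinase of the nutrient-sensing mTOR complexes. The member at its gene end had 1.63, 1.61 and 0.959 FPM at day 1, against 2.00 in day 0 replicate 1 alone.

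Among members within 100 kb of a coding gene, 1 per gene, the 12 highest at day 1 had day 1 means from 4.84 to 7.49 FPM. Replicate 3 was the lowest day 1 library in all 12, beside 92.3% of all members, and the order of replicates 1 and 2 varied. The highest lay inside Atp2b1, which encodes a calcium pump of the plasma membrane, on chromosome 10 from 98948014 to 98948497. It had 10.6, 8.21 and 3.70 FPM at day 1, against 1.00 and 1.23 in day 0 replicates 1 and 2. The summits held 52, 46 and 27 fragments at day 1, against 11 and 10 at day 0. Exact Poisson 95% intervals were 7.89 to 13.9, 6.01 to 10.95 and 2.44 to 5.38 FPM at day 1, and 0.499 to 1.79 and 0.590 to 2.26 at day 0. They cover counting error only, and the region was picked for its day 1 level.

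After Atp2b1, Hal and Lipe in that order came Gm33049, a predicted gene. The member 45.5 kb from Btg1, an antiproliferative gene, on chromosome 10 from 96571029 to 96571541, had 8.33, 5.71 and 2.88 FPM at day 1, against 1.11 in day 0 replicate 2 alone. The member 4.61 kb from Ptdss1, which encodes a phosphatidylserine synthase, had 5.69, 7.67 and 3.15 at day 1, against 0.817 in day 0 replicate 1 alone. The remaining 6 were near Tmem65, Osbp, Dazap1, Tmem100, Ano6 and Zmiz1. Osbp encodes the oxysterol-binding protein and Ano6 a phospholipid scramblase. The member 8.13 kb from Osbp was the most even at day 1, with 6.10, 5.18 and 4.52 FPM, against 2.09 and 1.85 in day 0 replicates 1 and 2. Ratios of the 12 ran from 2.60 to 6.74, and in each every day 1 value lay above every called day 0 value. The share was 58.2% over all members, and the 12 were picked for high day 1 values, so nothing is read from this. Of the 12, 4 were on chromosome 10 and 3 on chromosome 15, beside 51 and 31 of the 543 members. Nothing is read from these counts.

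**Figure D3:**
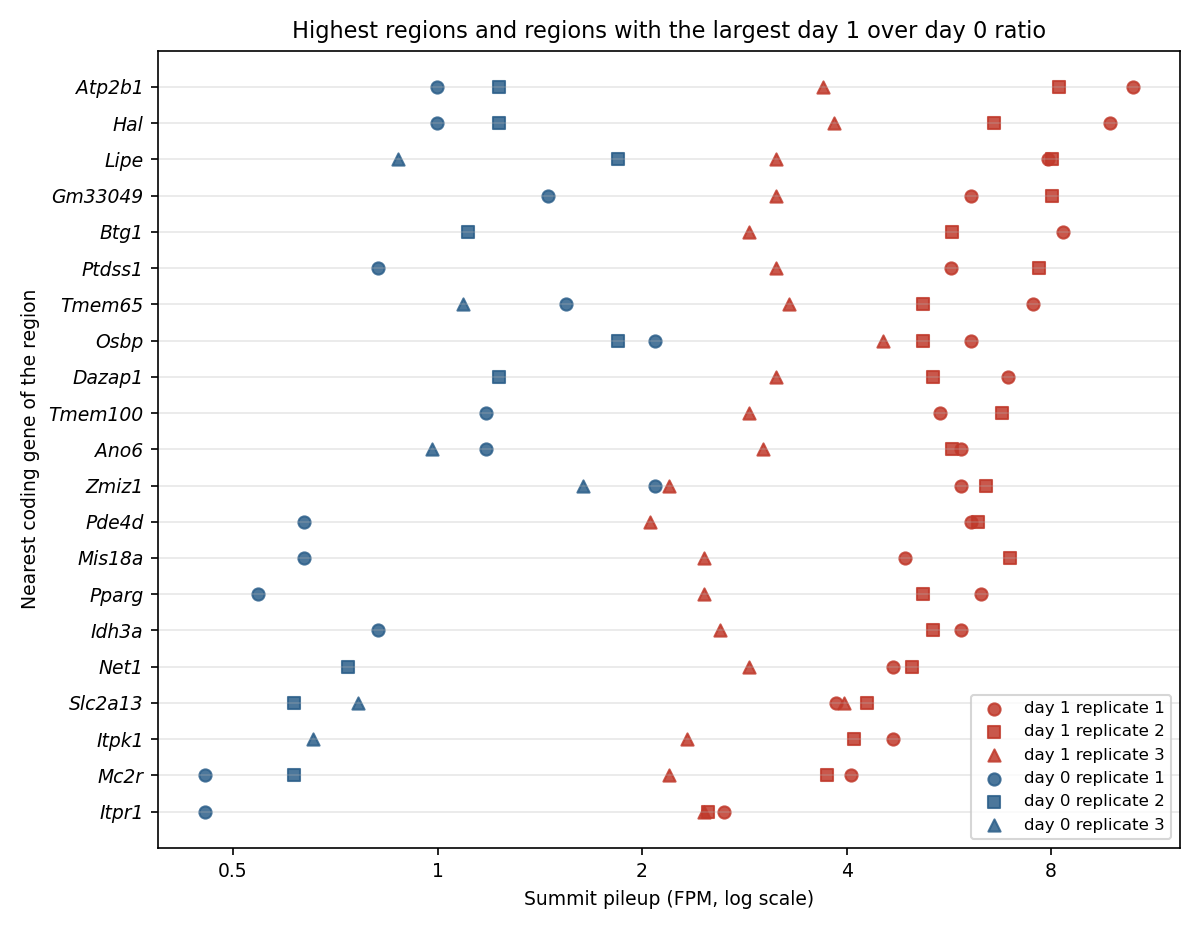
Summit pileup in FPM on a log axis, by library, of the members highest at day 1 and of those with the largest ratio, 21 regions in all, 1 row per region named by its nearest coding gene. Day 1 is red and day 0 blue, marker shapes are replicates, and a library without a call has no marker. In every row all day 1 markers stand above all day 0 markers, beside 58.2% of all members. The rows were picked by these values, so this separation describes the choice. Values run from 10.6 FPM at Atp2b1 in day 1 replicate 1 down to 0.454 FPM at Mc2r and Itpr1 in day 0 replicate 1.

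Among members within 100 kb of a coding gene, 1 region per gene, the 12 largest ratios were 5.58 to 8.53. Of these 12 regions 3, near Atp2b1, Hal and Ptdss1, are also among the highest at day 1. The largest ratio was that of the member nearest to Pparg, which encodes PPARγ. On chromosome 6 from 115511459 to 115511880 and 21.1 kb from the nearer gene end, it had 6.30, 5.18 and 2.46 FPM at day 1, against 0.545 in day 0 replicate 1 alone. The day 0 value was 6 fragments of 11011889, with an exact Poisson 95% interval of 0.200 to 1.19 FPM. The day 1 values were 31, 29 and 18 fragments, with a lowest bound of 1.46. These intervals cover counting error only. The region was picked for its ratio and has no value in the uncalled day 0 libraries, so nothing is read from the gap between the intervals. The day 1 mean was 4.65 ± 1.97 (SD, n = 3) and the ratio 8.53. The nearest coding start among the promoter windows, which are not complete, was that of Pparg, 89393 bp away.

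Next was a member 30.0 kb from the nearer end of Pde4d, a cAMP-degrading phosphodiesterase. The nearest coding start among the promoter windows, that of Rab3c, lay 293840 bp away. On chromosome 13 from 109985931 to 109986366, the member had 6.10, 6.25 and 2.05 FPM at day 1, against 0.636 in day 0 replicate 1 alone. Its ratio was 7.55. The member nearest to Mis18a, which helps load the centromere histone, had 4.88, 6.96 and 2.46 at day 1, against 0.636 in day 0 replicate 1 alone. Mc2r encodes the receptor for the pituitary hormone ACTH, and its member had 4.07, 3.75 and 2.19 at day 1, against 0.454 and 0.615 in day 0 replicates 1 and 2. Both day 0 values at Mc2r were 5 fragments, the lowest pileup with a call in either list.

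Slc2a13 encodes a myo-inositol transporter, and its member was level across day 1, with 3.86, 4.28 and 3.97 FPM, against 0.615 and 0.764 in day 0 replicates 2 and 3. Day 1 replicate 3 was not the lowest there. The others were near Net1, an exchange factor for RhoA, Itpk1, an inositol phosphate kinase, Idh3a, a subunit of the mitochondrial isocitrate dehydrogenase, and Itpr1, an inositol trisphosphate receptor that releases calcium. The Idh3a member, 0.140 kb from a gene end, had 5.89, 5.35 and 2.60 at day 1, against 0.817 in day 0 replicate 1 alone.

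Members were nearest, within 100 kb, to 455 of the 15267 coding genes with any region (2.98%). Of these genes 435 had 1 member, 16 had 2 and 4 had 3. The 4 were Tomm20, a receptor for protein import into mitochondria, Itpk1, Sema5a, a semaphorin, and Itpr1. The Tomm20 members, on chromosome 8, start at 126909385, 126913208 and 126929603. The middle one was the highest, with 5.08, 6.07 and 2.60 FPM at day 1, against 1.09 and 1.09 in day 0 replicates 1 and 3. All 3 had every day 1 value above the called day 0 values, beside 58.2% of all members. The first and last had a call in day 0 replicate 1 alone, and among all members with 1 day 0 call the share was 81.4%.

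Members near the same gene differed in their ratios. At Itpk1 the member starting at 102616306 had 4.68, 4.10 and 2.33 FPM at day 1, against 0.655 in day 0 replicate 3 alone, a log2 ratio of 2.50. The member starting at 102600230 had 2.85, 2.14 and 1.23 at day 1, against 1.54 and 1.85 in day 0 replicates 1 and 2, a log2 ratio of 0.29, and the days overlapped. At Itpr1 the log2 ratios were 0.23, 2.22 and 2.48, and at Sema5a 1.54, 0.92 and 1.09. Of the genes with 2 members, Btg1, Chst11 and Myo10 had log2 ratios of 2.35 and 1.26, 2.20 and 0.81, and 1.32 and 2.09. Chst11 encodes a chondroitin sulfotransferase and Myo10 a myosin of filopodia.

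The fixed gene lists gave 22 genes with a member among 298 with a region. Without day 1 replicate 3 there were 44 such genes, and without day 0 replicate 3 there were 14. Genes of most lists had more regions each than the 3.90 of all coding genes with a region, 4.32 in the lipid list and 8.67 in the insulin list among them, so counts are also given per region. Genes of lipid storage, uptake and release had 6 of 34: Lipe, Bscl2, Retn, Plin4, Aqp7 and Lpin1. That is 40.8 members per 1000 regions near the list's genes, beside 8.03 per 1000 near all coding genes. The lists were chosen with earlier results of these data known, so the rates are a description and were not tested. Bscl2 encodes seipin, which shapes lipid droplets, and the member inside it, on chromosome 19 from 8844434 to 8844966, had 4.27, 5.35 and 3.01 FPM at day 1, against 0.999 and 1.35 in day 0 replicates 1 and 2. Retn encodes the adipocyte hormone resistin. Its member, on chromosome 8 from 3654856 to 3655326 and 0.444 kb from a gene end, had 4.47, 3.39 and 1.78 at day 1, against 0.636 and 0.873 in day 0 replicates 1 and 3. The days did not overlap at either gene.

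Plin4 encodes a lipid droplet coat protein, and the member 0.486 kb from its gene end had 3.05, 3.93 and 1.23 FPM at day 1, against 1.27 and 1.85 in day 0 replicates 1 and 2, so the days overlapped. Lpin1 encodes a phosphatidate phosphatase, and its member had 1.22, 1.07 and 0.959 at day 1, against 0.908 in day 0 replicate 1 alone, which places it just above the lowest called pileups. In 5 of the 6 lipid members all day 1 values lay above the called day 0 values, beside 58.2% of all members. Among all members with 1 day 0 call, such as that of Lpin1, the share was 81.4%. The median log2 ratio of the 6 was 1.33, beside 0.94 in all members. The lipid count of 6 genes became 10 without day 1 replicate 3 and 3 without day 0 replicate 2.

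cAMP-responsive genes had 4 of 26, with 5 members, or 24.9 per 1000 regions: Pde4d with 2, Prkar2b, Id1 and Pde7b. The count was 2 genes without day 0 replicate 2. Prkar2b encodes the regulatory subunit of protein kinase A that prevails in fat cells. The member 47.5 kb from it had 4.88, 4.997 and 1.92 FPM at day 1, against 1.36 and 1.09 in day 0 replicates 1 and 3. Id1 encodes an inhibitor of basic helix-loop-helix factors, and its member 4.08 kb away had 2.85, 4.46 and 2.33 at day 1, against 1.45 and 1.20 in day 0 replicates 1 and 3. In 4 of the 5 every day 1 value lay above the called day 0 values, beside 58.2% of all members. The exception was the member inside Pde4d, with 1.63, 2.32 and 0.822 at day 1, against 1.45 and 0.655 in day 0 replicates 1 and 3.

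Insulin and growth factor signalling had 5 of 27: Irs2, Foxo3, Cblb, Akt2 and Mtor, with 21.4 members per 1000 regions and a median log2 ratio of 0.21. The count was 3 genes without day 0 replicate 1 or without day 0 replicate 3. In 2 of the 5 members every day 1 value lay above the called day 0 values, beside 58.2% of all members. These were the members of Irs2, an adaptor of the insulin receptor, and Foxo3, a transcription factor restrained by insulin. The Foxo3 member had a call in day 0 replicate 1 alone. At Irs2 the values were 3.46, 2.68 and 2.05 FPM at day 1, against 0.817 and 0.738 in day 0 replicates 1 and 2. At Akt2, which encodes the insulin-activated kinase of fat and muscle, they were 1.83, 1.43 and 1.23 at day 1, against 2.09 and 0.873 in day 0 replicates 1 and 3, and the days overlapped.

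Adipogenic transcription factors had 2 of 28, Pparg and Klf15. The Klf15 member had 2.03, 1.61 and 0.959 FPM at day 1, against 0.999 and 1.11 in day 0 replicates 1 and 2, and the days overlapped. The glucocorticoid-responsive list had 2 of 27, the same Klf15 member and the Irs2 member. Without day 1 replicate 3 the adipogenic count was 8 and the glucocorticoid count 4, and without day 0 replicate 3 they were 1 and 0. The adipogenic count was also 1 without day 0 replicate 1. Per 1000 regions near their genes, the adipogenic and glucocorticoid lists had 8.20 and 10.9 members, beside 8.03 near all coding genes.

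Precursor and anti-adipogenic genes had 2 of 32, Tcf7l1 and Zeb1, and extracellular matrix genes had 2 of 29, Col6a1 and Col4a2. Per 1000 regions these were 7.17 and 6.56. The member 8.65 kb from Col6a1, a collagen VI chain, had 6.30, 5.71 and 2.33 FPM at day 1, against 1.09 and 1.23 in day 0 replicates 1 and 2. Cell cycle genes had 1 of 26, near the inhibitor Cdkn2c, and its days overlapped. The extracellular matrix count was 5 without day 1 replicate 3 and 0 without day 0 replicate 3, the precursor count was 4 without day 1 replicate 3 and 1 without day 0 replicate 1 or 2, and the cell cycle count was 4 without day 1 replicate 3, 2 without day 1 replicate 1, and 0 without day 1 replicate 2 or day 0 replicate 3. No member lay near any of 21 thermogenic genes, 19 clock genes, 15 AP-1 and immediate early genes, 16 housekeeping genes, or 7 endothelial, 5 immune and 7 muscle markers. In that order these lists had 108, 100, 86, 62, 35, 18 and 22 regions near their genes. With 8.03 members per 1000 regions near all coding genes, lists this small need hold none, and nothing is read from the lack of members. Without day 1 replicate 3 there were 2 thermogenic genes (Cox8b and Ebf2) and 3 clock genes (Arntl, Nfil3 and Per1) with a member.

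**Figure D4:**
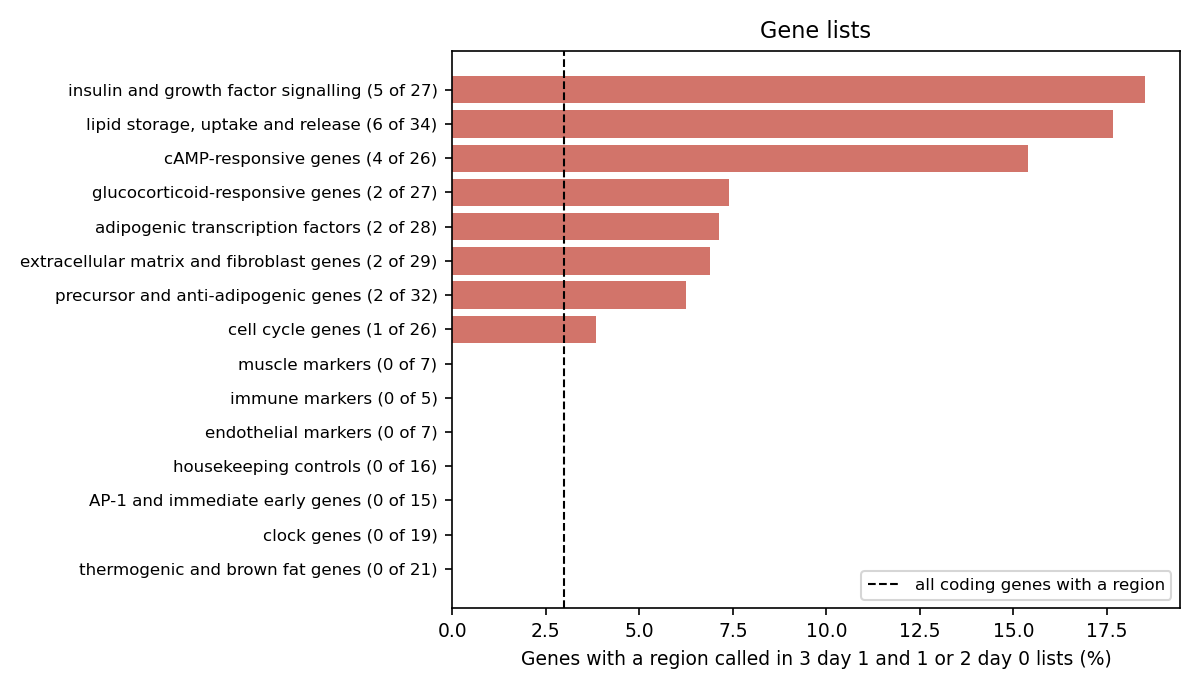
Genes with a member as percent of the genes of each fixed list that had any region within 100 kb, with a dashed line at the 2.98% of all coding genes. The insulin list with 5 of 27 genes and the lipid list with 6 of 34 stand highest, and 7 lists have no gene with a member. The lists were chosen with earlier results of these data known.

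Of 14 regulators chosen as a list, only Pparg had a member, 1 of the 15 regions assigned to it. None of those 15 was called in all 3 day 1 lists and no day 0 list, and 5 were called in no day 1 list and all 3 day 0 lists, so the regions near Pparg were not called in 1 direction. Pparg had no gene-end peak in any day 1 list and 1 in a day 0 list. Cebpb, Ebf2, Runx1, Runx2 and Nr3c1 had 13, 19, 17, 8 and 9 regions and no member. Zbtb16, a transcription factor of the glucocorticoid response, had no member and 1 region in the day 1 lists only, with gene-end peaks in all 3 day 1 lists and no day 0 list. Ucp1, the heat-producing uncoupling protein, and Fkbp5, a glucocorticoid target, had no region.

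By position, 89 members (16.4%, exact binomial 95% interval 13.4 to 19.8) lay within 1 kb of an annotated start or end of a coding gene. A further 262 (48.3%) lay inside a gene, 152 (28.0%) between genes within 100 kb and 40 (7.37%) beyond. The interval covers counting error only, and leaving out 1 library at a time gave gene-end shares of 11.97% to 22.3%. The gene-end share was 7.24% with 1 day 0 call and 22.7% with 2, beside 5.74% of regions in the day 1 lists only, 62.6% of regions in all 6 lists and 19.6% of all regions. The number of day 0 calls and the gene-end share rose in the same order, without a test, since regions share their libraries. Median width followed the same order, at 413 bp with 1 day 0 call and 480 bp with 2, beside 361.5 bp in day 1 lists only and 710 bp in all 6.

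The ratios also differed by place. The median log2 ratio was 0.29 at gene ends, 1.01 inside genes, 1.07 between genes within 100 kb and 1.11 beyond. Of the 89 members at gene ends, 73 had 2 day 0 calls, the class with the lower ratios. With 1 day 0 call the median was 0.75 at gene ends (16 members) and 1.22 away from them (205 members), and with 2 day 0 calls it was 0.25 (73 members) and 0.89 (249 members). All day 1 values lay above all called day 0 values in 22 of 89 members at gene ends, 170 of 262 inside genes, 102 of 152 between genes and 22 of 40 beyond. In regions in all 6 lists this share was 0.577% at gene ends and 5.91% away from them, so a split of this share is not particular to the members. All day 1 values lay below all day 0 values in 2.55% of these regions at gene ends and 17.0% away. Their median log2 ratio was −0.08 at gene ends and −0.16 away, an order opposite to that of the members. Among the distant ones, the member 135 kb from Bcl6, which encodes a transcriptional repressor, had 4.07, 4.28 and 2.33 FPM at day 1, against 0.726 FPM in day 0 replicate 1 alone. It was chosen after its values were seen.

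**Figure D5:**
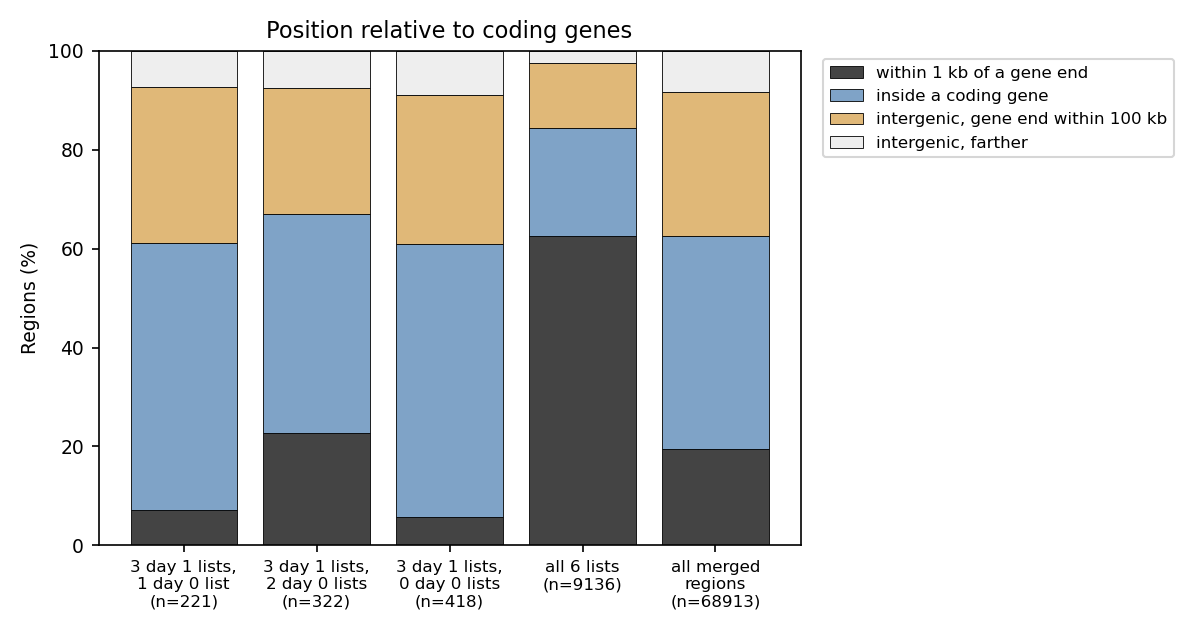
Place relative to coding genes, as percent of each class, for members with 1 and with 2 day 0 calls, regions in the day 1 lists only, regions in all 6 lists and all merged regions. The dark segment, regions within 1 kb of a gene end, is 7.24%, 22.7%, 5.74%, 62.6% and 19.6%.

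For the 390 members away from gene ends with a coding gene within 100 kb, that gene had a gene-end peak in all 6 lists for 168 (43.1%) and in no list for 95 (24.4%). It had gene-end peaks in more day 1 than day 0 lists for 8 (2.05%) and in fewer day 1 than day 0 lists for 108 (27.7%). The same shares over all 15267 coding genes with a region were 40.6% in all 6 lists, 26.2% in no list, 2.02% in more day 1 lists and 28.8% in fewer, close to those of the members' genes. The 8 lay near Adipor2, Bcl2l10, Efemp1, Itpk1, Osbpl11, Ptch1 and Ttc28, named after their values were seen. Adipor2 encodes an adiponectin receptor, and the member inside it had 2.85, 3.21 and 1.10 FPM at day 1, against 1.73 in day 0 replicate 1 alone.

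The neighbourhoods were mixed. A region called in all 3 day 0 lists and no day 1 list lay within 50 kb of 58.6% of members, beside 29.2% of regions in the day 1 lists only and 54.5% of regions in all 6 lists. Another member lay within 50 kb of 5.89% of members. By chromosome, members were 1.17% of regions on chromosome 4, 1.09% on chromosomes 10 and 19, and 0.503% on chromosome 9.

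Members are merged from overlapping peaks, so the summits of a member lie close together in part by construction. The 3 day 1 summits spanned a median of 82 bp, and the farthest day 0 summit lay a median of 65 bp from the middle day 1 summit. In 101 members (18.6%) a day 0 summit lay over 150 bp away, and in 4 a day 0 peak overlapped no day 1 peak and was joined only through other peaks. In 30 members a library had more than 1 peak, and the highest was used.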

How the data were processed

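Peaks were called per library with MACS2 2.2.7.1 on paired-end fragments, without a control, per the file headers, which give a q cutoff of 0.05, a background window of 10000 bp and 1 fragment kept per position. The recorded command also shifts reads by 100 bp and extends them to 200 bp, which paired-end mode ignores, so peaks mark the density of fragments, not transposase cuts. The submitters' processing notes name mm10, Trim Galore 0.6.7, Bowtie2 2.4.4 and SAMtools 1.15.1, without a step for each. The deposited pileup is the count of fragments at the summit, unscaled. The deposited −log10 p and −log10 q values and the authors' fold enrichment, a ratio to the local background, were used only as filters, ranks and an alternative. Peak start, end, summit and length are deposited in bp on mm10.

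Peaks on chromosomes 1 to 19, X and Y overlapping by 1 bp or more were merged, and pileup was divided by the fragments in the header and multiplied by 1000000 (FPM). Uncalled libraries were left out of means. The nearest of 21887 coding genes of GRCm38.p6 was taken by distance to either annotated end, at most 100 kb away, which says nothing of regulation. RefSeq promoter windows (32851, none on chromosome 18, not complete) gave the sequences. Python 3.11.15, pandas 2.3.3, numpy 2.4.6, scipy 1.17.1 and matplotlib 3.10.9 were used, and the merging was tested on simulated lists. Of the 318 symbols in the gene lists, 315 matched the gene table.

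Members and gene lists were chosen with earlier results of these data known. Named genes are those of the 12 highest members at day 1 and the 12 largest ratios, both among members within 100 kb of a coding gene and 1 per gene, up to 8 genes with the most members, up to 4 per list and 14 regulators. Others are said to be chosen after their values were seen. Alternatives covered merging, the q threshold, equal lists, scaling, the measure, uncalled libraries, gene distances and leaving out each library. No test was made.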

Additional observations from a re-analysis of the deposited data

How the results depend on the processing

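With peaks of −log10 q of at least 5 there were 306 members, 187 of them with every day 1 value above every called day 0 value, and 167 of the 543 remained. With all lists cut to 12556 peaks the rule gave 1497 regions, of which 9 were among the 543, with a median log2 ratio of −0.14, 31 with day 1 values all higher and 63.7% at gene ends. A call then means a peak among the 12556 strongest of its library. Of the 543, 530 then had no day 0 call, and 289 (53.2%) were called in all 3 day 1 lists and no day 0 list. Regions in all 6 of the cut lists had a median of −0.16. The −0.14 is thus a value of other regions, not a reversal in the 543, and its cause was not tested. The authors' fold enrichment gave a median log2 ratio of 0.30. A gene-end window of 5 kb gave 28.7% and one of 500 bp gave 12.5%. A limit of 10 kb to the nearest gene left 12 list genes, against 22, with 1 cAMP and 2 insulin genes, and the stricter q left 2 insulin genes.

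Leaving out 1 library at a time gave 309 to 1402 members, 38.7% to 41.4% with exactly 1 day 0 call (day 1 libraries left out), median log2 ratios of 0.66 to 1.05, 221 to 1018 members with day 1 values all higher, 11.97% to 22.3% at gene ends and 14 to 44 list genes. The upper count came without day 1 replicate 3, which added members near Adipoq, Gpam, Mgll and Scd1 of the lipid list and Cebpb, Ebf1, Ebf2, Mlxipl, Nfil3 and Zfp423 of the adipogenic list, and 542 of the 543 remained. The lowest came without day 0 replicate 3. Scaling by the medians of regions in all 6 lists moved the median of those regions from −0.09 to 0.07 and that of members to 1.19, with 448 of 543 having day 1 values all higher. Giving uncalled day 0 libraries the lowest pileup of their list moved it to 1.26. No paired analysis was possible because these values come from no test, and the labels do not say whether equal replicate numbers at day 1 and day 0 mark shared samples. Depth limits the low end: a missing day 0 call is not absence of signal, and members with 5 to 10 fragments in a library cannot be ordered among themselves.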
